A study of Mus musculus with 3 samples.

Results

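The nuclear genes of respiratory complexes II to V and of cytochrome c were followed in macrophages grown from mouse bone marrow (BMDMs) and given purified lipoproteins of *Borrelia burgdorferi*, the spirochete of Lyme disease. The genes were taken by symbol: *Sdha* to *Sdhd* for complex II, *Cyc1* and symbols that start with *Uqcr* for complex III, *Cycs* for cytochrome c, symbols that start with *Cox* and a digit from 4 to 8 for complex IV, and symbols that start with *Atp5* for complex V. Of 32285 genes in the matrices, 49 matched, and 46 of these had the required 20 unique molecular identifiers (UMIs) or more over the kept cells: 4 of complex II, 9 of complex III, *Cycs*, 15 of complex IV and 17 of complex V. The 3 left out were *Cox8b* and *Cox8c* at 0 UMIs and *Cox7b2* at 1, and the members just above the limit were *Cox4i2* with 68, *Cox6b2* with 147 and *Cox6a2* with 230.

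The respiratory chain passes electrons from reduced cofactors to oxygen through complexes embedded in the inner mitochondrial membrane. Succinate dehydrogenase (complex II) oxidises succinate and belongs to the tricarboxylic acid (TCA) cycle as well, cytochrome bc1 (complex III) passes electrons from ubiquinol to the small carrier cytochrome c, cytochrome c oxidase (complex IV) reduces oxygen, and ATP synthase (complex V) uses the proton gradient to make ATP. Complex II is encoded in the nucleus alone, whereas complexes III, IV and V join nuclear subunits to a few that are made from the mitochondrial genome. Macrophages that meet bacterial ligands are known to change how they use this chain, with succinate and itaconate as well-studied intermediates.

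The data are 1 droplet-based single-cell library for each of 3 conditions, made from BMDMs of female C3H/HeN mice aged 6 to 8 weeks. The marrow was cultured in medium with L929 cell supernatant. The study's culture methods state that marrow was pooled, whereas its single-cell methods name BMDMs of 3 mice that were treated independently. UI cells are labelled untreated, and the study describes its controls as given PBS and collected at 4 hours. LP1 cells received 1 µg/mL of the lipoproteins for 1 hour, and LP4 cells received the same dose for 4 hours. Cells from 3 wells were pooled into each library, which leaves every condition without a replicate. No test between conditions was therefore possible, and time in culture and treatment cannot be told apart in LP1 against UI. Length of exposure and time of collection cannot be told apart in LP4 against LP1. Levels are UMIs per 1000000 UMIs of the kept cells of a library (CPM), and every interval is a 95% interval that covers counting error only.

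The kept cells numbered 6071 in UI, 5065 in LP1 and 4670 in LP4, with 35688939, 52475723 and 61402275 UMIs. The median cell held 5133, 9343 and 11784 UMIs and 1.97%, 2.84% and 3.17% mitochondrial UMIs, and the filters removed 0.849% to 7.32% of the barcodes. Between 3 and 9 kept barcode sequences were shared by any 2 libraries. The macrophage label was borne out by the marker genes: 7 of 8 macrophage markers were above 50 CPM in all libraries, with a summed level of 10750 to 11783 CPM. Summed neutrophil markers came to 274 to 519 CPM, cycling markers to 340 to 413, and dendritic cell, stromal and B or T cell markers to 0.588 to 19.7, with *Cd3e*, *Trbc2*, *Hba-a2*, *Hbb-bs* and *Hbb-bt* at 0 in all 3 libraries.

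The members as a whole took a smaller share of the UMIs after treatment. They summed to 10234 CPM in UI, 8260 in LP1 and 7915 in LP4. Against UI, the log2 ratio was -0.31 in LP1 (interval -0.32 to -0.30) and -0.37 in LP4 (-0.38 to -0.36). Between LP1 and LP4 the sum differed by -0.06 (-0.07 to -0.06). Per cell the number of member UMIs went the other way, from 60.2 in UI to 85.6 in LP1 and 104 in LP4, while all UMIs per cell went from 5879 to 10361 and 13148. RNA content and sequencing depth per cell cannot be told apart in these libraries, so a lower CPM is a smaller share of a cell's UMIs and not a count of fewer molecules.

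The smaller share was seen across the population of cells. The median cell gave 1.00% of its UMIs to the members in UI, 0.813% in LP1 and 0.764% in LP4, and the 10th to 90th percentiles ran from 0.741% to 1.31%, from 0.628% to 1.02% and from 0.555% to 1.01%. A share below the UI median was seen in 87.9% of LP1 and 89.6% of LP4 cells, and the histogram of shares per cell shows a single peak in each library.

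**Figure D1:**
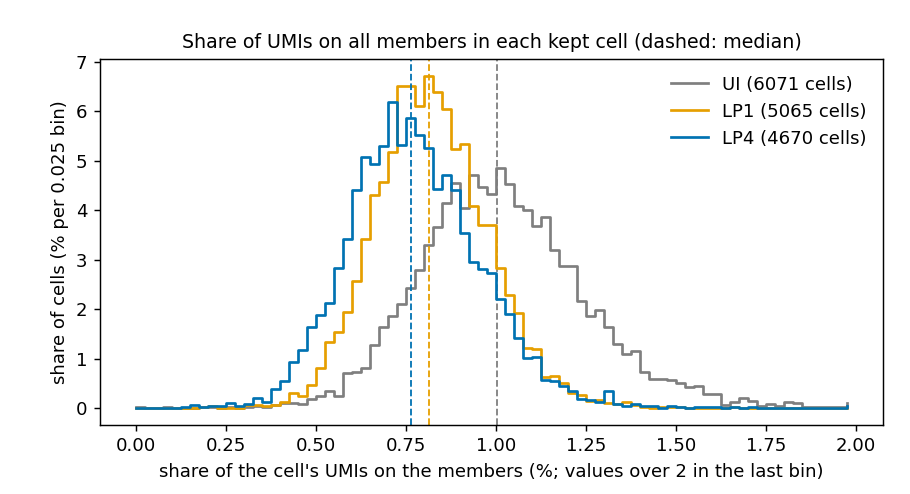
Share of each kept cell's UMIs that fell on the 46 members (x axis, %) against the share of cells in bins of 0.025 (y axis, %), with 1 line for each library and a dashed line at its median. The LP1 and LP4 medians, 0.813% and 0.764%, lie left of the UI median of 1.00%, and the curves overlap.

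The complexes did not share 1 direction. Complex III stood at 1621 CPM in UI, 1083 in LP1 and 1106 in LP4. Its share of the UMIs was below that of UI by about as much in LP1 (log2 ratio -0.58, interval -0.60 to -0.57) as in LP4 (-0.55, -0.57 to -0.54). Most of that difference lay in *Uqcr10*, *Uqcr11* and *Uqcrq*, and the median ratio of the 9 members was -0.32 in LP1 and -0.28 in LP4. Complex IV went from 4047 to 3186 and 3024 CPM, or -0.35 (-0.36 to -0.34) in LP1 and -0.42 (-0.43 to -0.41) in LP4. Complex V went from 4251 to 3621 and 3460 CPM, or -0.23 (-0.24 to -0.22) and -0.30 (-0.31 to -0.29). Complex II was higher in LP1 than in UI, at 257, 308 and 248 CPM across the 3 libraries, with ratios of 0.26 (0.23 to 0.30) in LP1 and -0.05 (-0.09 to -0.02) in LP4. *Cycs*, the single somatic gene of cytochrome c among the members, was at 58.1, 62.2 and 77.0 CPM, or 0.10 (0.02 to 0.18) and 0.41 (0.33 to 0.48). In cells of 4000 to 12000 UMIs its ratio in LP1 over UI was -0.091 (-0.19 to 0.01).

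**Figure D2:**
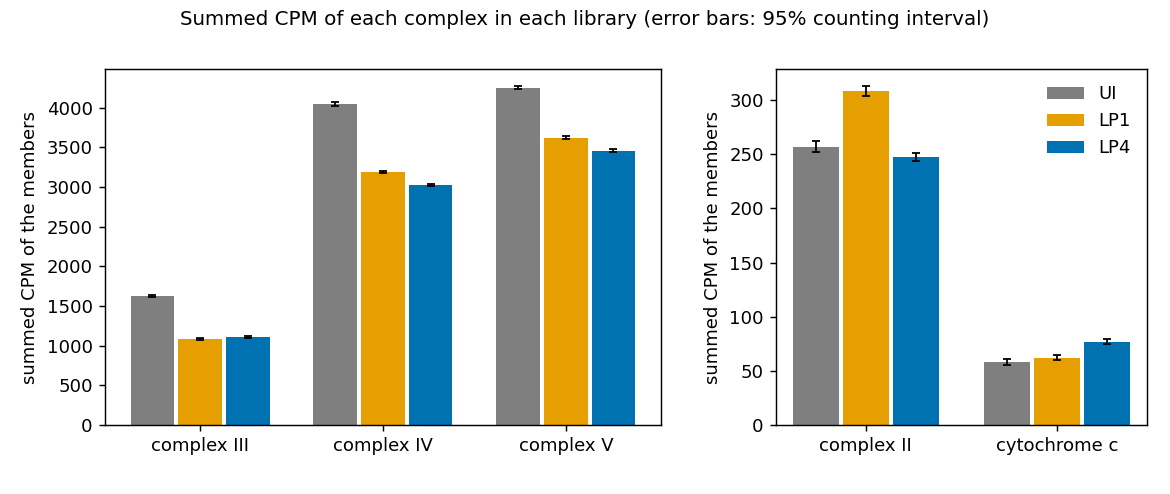
Summed CPM of the members of each complex (y axes from 0) in UI, LP1 and LP4, with complexes III to V on the left and complex II and cytochrome c, at a smaller scale, on the right; error bars are 95% counting intervals. Complexes III, IV and V are highest in UI, complex II is highest in LP1 at 308 CPM, and cytochrome c is highest in LP4 at 77.0 CPM.

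A member was called lower or higher where its log2 ratio was at least 0.5 in size and the counting interval left out 0. In LP1 over UI, 15 of 46 members (32.6%) were lower and 5 (10.9%) higher. Among all 15154 genes with at least 20 UMIs the same rule called 8.16% lower and 5.47% higher. In LP4 over UI, 19 members (41.3%) were lower and 5 (10.9%) higher, where 30.2% and 20.2% of all genes were called. In LP4 over LP1, 4 members were lower and 3 higher, where 25.4% and 18.6% of all genes were called. The share of lower members thus stood far above the background at 1 hour, closer to it at 4 hours, and below it between 1 and 4 hours. This background was not matched for mRNA length, and the members had short mRNAs, as given below.

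Of the 46 members, 41 reached 50 CPM in at least 1 library, and the other 5 were *Sdhd*, *Cox4i2*, *Cox6a2*, *Cox6b2* and *Cox7a1*. Of the 41, LP1 over UI had 13 lower and 4 higher, against 4.8% lower and 5.27% higher of the 3792 genes at this level. LP4 over UI had 15 lower and 4 higher, against 24.5% and 26.4%. LP4 over LP1 had 2 lower and 2 higher, against 18.6% and 21.6%. The median log2 ratio over all members was -0.16, -0.39 and 0.03 in the 3 comparisons, and over the 3792 genes it was -0.02, -0.02 and -0.01. With TMM scaling, which moved the median of the 3792 genes to 0.15 in LP4 over UI, 10 members were lower and 9 higher in that comparison, and with median of ratios scaling, which moved it to 0.19, 8 were lower and 9 higher. The share of all genes called under these scalings was not counted, so these numbers cannot be set against a background. Both comparisons with UI share that library, so their values are not independent.

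**Figure D3:**
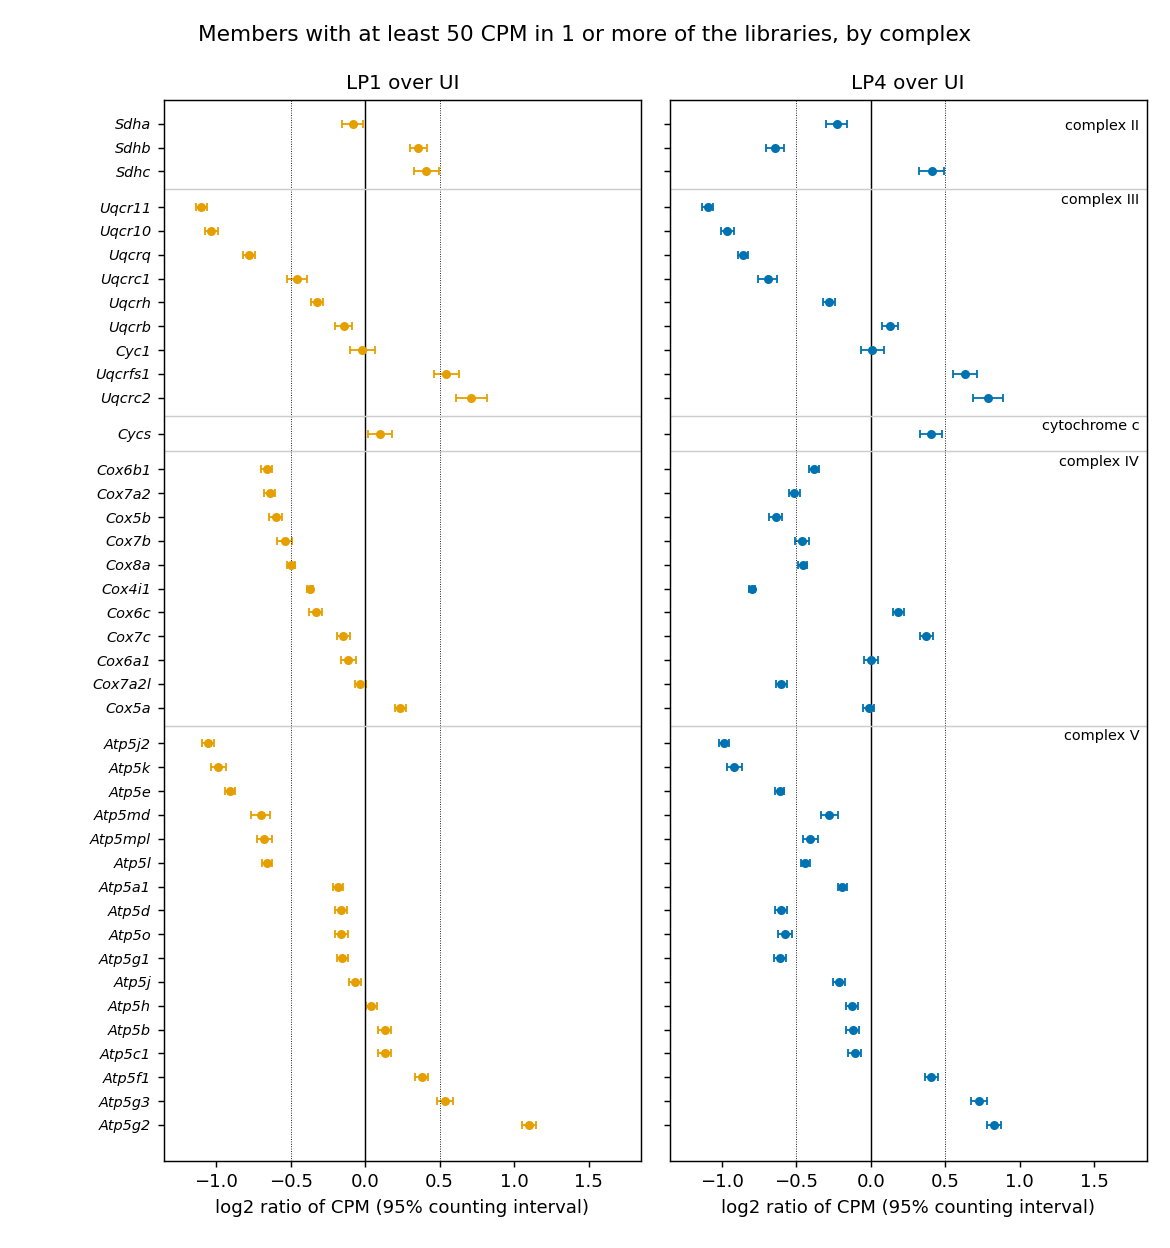
Log2 ratio of CPM (x axis) of the 41 members with at least 50 CPM in 1 or more of the libraries, LP1 over UI on the left and LP4 over UI on the right, grouped by complex and ordered by LP1 over UI; error bars are 95% counting intervals and dotted lines mark the limits of a call at 0.5. Most points of complexes III to V lie left of 0, while *Uqcrc2*, *Uqcrfs1*, *Atp5f1*, *Atp5g2* and *Atp5g3* lie right of it in both panels.

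The subunits of complex II spread apart between 1 and 4 hours. *Sdhb*, the iron-sulfur subunit, was at 116 CPM in UI, 149 in LP1 and 74.7 in LP4, above UI at 1 hour (log2 ratio 0.36, 0.30 to 0.41) and below it at 4 hours (-0.64, -0.70 to -0.58). *Sdhd*, a membrane anchor, went from 13.3 to 20.4 and 41.6 CPM, 0.62 (0.46 to 0.78) in LP1 and 1.65 (1.5 to 1.79) in LP4, which was the highest ratio to UI of any member. From LP1 to LP4 these subunits of the same enzyme thus moved by -0.998 (-1.05 to -0.94) and by 1.03 (0.92 to 1.13). These are opposite directions and like amounts on the log2 scale, but not in CPM, and *Sdhd* was below 50 CPM in each library. *Sdhc*, the other anchor, was at 47.9, 63.6 and 63.5 CPM, which is 0.41 (0.33 to 0.49) above UI in LP4 while the complex sum was slightly below it. *Sdha*, the flavoprotein that binds succinate, was at 79.5, 75.1 and 67.8 CPM and moved against the sum in LP1 (-0.08, -0.15 to -0.01). The member against the sum in LP4 was *Sdhc*, and *Sdhd* was also against it below 50 CPM. The sum of complex II in LP4 was so close to that of UI that other scalings put it above, at 0.12 with TMM and 0.15 with median of ratios, under which *Sdhc* is no longer against it.

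The promoters of the diverging pair are shown because the genes moved apart while serving 1 enzyme. They are 180 bases from RefSeq on GRCm38.p6, from 150 before to 30 after the annotated start, with matches to 3 core motifs in capitals on either strand: GCGCANGC for NRF1, CCGGAAG for ETS factors such as GABPA, and AAGATGGCG for YY1, which are factors long studied at respiratory genes.
Sdhb, chr4:140961121-140961300, plus strand: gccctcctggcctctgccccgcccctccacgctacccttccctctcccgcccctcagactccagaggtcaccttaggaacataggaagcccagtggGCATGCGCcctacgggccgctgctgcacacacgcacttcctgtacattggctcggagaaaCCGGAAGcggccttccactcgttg
Sdhd, chr9:50603820-50603999, minus strand: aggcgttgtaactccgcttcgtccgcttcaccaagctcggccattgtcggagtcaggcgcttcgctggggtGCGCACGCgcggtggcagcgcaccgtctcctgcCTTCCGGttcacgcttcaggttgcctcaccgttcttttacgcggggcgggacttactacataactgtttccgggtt
Both windows hold 1 match to the NRF1 core and 1 to the ETS core. Their matches start 54 bases before and at base 7 after the start in *Sdhb*, and 79 and 46 bases before it in *Sdhd*.

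Complex III held the member with the lowest ratio at 1 hour, among those of at least 50 CPM, and 2 members called higher at both times. *Uqcr11*, a small supernumerary subunit, was at 373 CPM in UI, 174 in LP1 and 175 in LP4, with ratios of -1.10 (-1.14 to -1.06) and -1.09 (-1.13 to -1.06). *Uqcr10*, another subunit of this kind, was at 280, 137 and 144 CPM (-1.03, -1.08 to -0.99, and -0.96, up to -0.92). *Uqcrq*, also a small subunit, was at 349, 204 and 193 CPM (-0.78, -0.82 to -0.74, and -0.86, -0.89 to -0.82). These 3 small subunits were below UI to a like extent in LP1 and in LP4, and differed by at most 0.08 in size between them.

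The other subunits of complex III moved in both directions. *Uqcrfs1*, the Rieske iron-sulfur protein, moved against the complex, with 48.6, 70.8 and 75.2 CPM (0.54, 0.46 to 0.63, in LP1 and 0.63, 0.55 to 0.71, in LP4). *Uqcrc2*, a core protein, did the same with 29.3, 48.0 and 50.6 CPM (0.71, 0.61 to 0.82, and 0.79, 0.68 to 0.89), though in LP1 and UI it was below 50 CPM. Its partner core protein *Uqcrc1* went the other way, at 99.7, 72.7 and 61.7 CPM (-0.46, -0.52 to -0.39, and -0.69, -0.76 to -0.63), so that the core pair separated. *Cyc1*, the cytochrome c1 subunit with a catalytic heme, stayed at 55.6, 54.8 and 56.0 CPM, and its intervals of -0.10 to 0.06 and -0.07 to 0.09 took in 0. *Uqcrh*, the acidic hinge protein, was lower at 261, 209 and 215 CPM (-0.32 and -0.28), and *Uqcrb*, a further small subunit, was at 125, 113 and 136 CPM, below UI in LP1 (-0.14, -0.20 to -0.09) and against the complex in LP4 (0.13, 0.08 to 0.18). In cells of 4000 to 12000 UMIs *Uqcrb* was no longer against the complex in LP4.

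The promoter of *Uqcr11*, the member of at least 50 CPM with the lowest ratio in both comparisons with UI, is given in the same form.
Uqcr11, chr10:80406792-80406971, minus strand: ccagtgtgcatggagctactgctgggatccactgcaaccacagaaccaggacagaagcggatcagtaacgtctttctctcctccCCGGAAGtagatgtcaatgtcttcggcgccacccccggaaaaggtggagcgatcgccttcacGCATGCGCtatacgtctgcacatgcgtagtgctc
It holds 1 match to the ETS core, starting 66 bases before the start, and 1 to the NRF1 core, starting 4 bases before it. A window was found for 34 of the 46 members. Of these, 15 (44.1%) held the NRF1 core, 13 (38.2%) the ETS core and 2 (5.88%) the YY1 core in the full 300 bases, and 21 (61.8%) held any. Of all 27018 genes with a window, 11.2%, 9.93% and 1.64% held each core, and 19.9% held any. These matches are a description of letters and not of factor binding.

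Most subunits of complex IV lay below UI, to a different depth at 1 and at 4 hours. *Cox4i1*, the ubiquitous isoform of its largest nuclear subunit, was at 1317, 1019 and 757 CPM. Its ratio to UI was -0.37 (-0.39 to -0.35) in LP1 and -0.80 (-0.82 to -0.78) in LP4. It was lower by 0.43 on the log2 scale in LP4 than in LP1. *Cox7a2l*, a factor of supercomplex assembly, was at 310, 303 and 204 CPM, near UI in LP1 (-0.03, -0.07 to 0.00) and lower in LP4 (-0.60, -0.64 to -0.56). Among members of complex IV with at least 50 CPM, *Cox4i1* had the lowest ratio in LP4 over UI and *Cox7a2l* in LP4 over LP1.

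Several small subunits lay below UI in both LP1 and LP4. *Cox6b1*, on the intermembrane side, had the lowest LP1 ratio of complex IV at this level, at 320, 203 and 246 CPM (-0.66, -0.70 to -0.62, and -0.38, -0.42 to -0.35). *Cox5b*, a zinc-binding subunit, was at 230, 152 and 148 CPM (-0.60 and -0.64), *Cox7a2* at 296, 190 and 207 (-0.64 and -0.51), *Cox7b* at 185, 128 and 135 (-0.54 and -0.46) and *Cox8a* at 538, 381 and 391 (-0.50 and -0.46, short of a call in both). From LP1 to LP4, *Cox6b1* was higher by 0.28 (0.24 to 0.31), *Cox7a2*, *Cox7b* and *Cox8a* were higher by 0.13, 0.08 and 0.04, and the interval of *Cox5b* took in 0.

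The members that moved against complex IV in the comparisons with UI were few. *Cox5a*, a matrix-side subunit, was at 245, 289 and 243 CPM, above UI in LP1 (0.24, 0.20 to 0.28) and level with it in LP4 (-0.01, -0.05 to 0.02). *Cox7c* was at 201, 182 and 261 CPM, against the complex in LP4 (0.37, 0.33 to 0.41) after -0.15 (-0.19 to -0.10) in LP1. *Cox6c* was at 236, 188 and 268 CPM, in LP4 0.18 (0.15 to 0.22) above UI after -0.33 (-0.37 to -0.29) in LP1. Both were 0.52 higher in LP4 than in LP1, the highest ratios of its members in that comparison. *Cox6a1* was at 159, 147 and 159 CPM, with an interval of -0.05 to 0.05 in LP4 over UI.

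Isoforms of complex IV known from other tissues were near the limit of detection. *Cox4i2*, known from lung, was at 0.560, 0.610 and 0.261 CPM, *Cox6a2*, from heart and muscle, at 2.02, 1.89 and 0.961, and *Cox6b2*, from testis, at 1.54, 0.667 and 0.928. *Cox7a1*, from heart and muscle, was at 5.49, 2.65 and 2.69 CPM, with log2 ratios of -1.05 (-1.38 to -0.73) and -1.03 (-1.34 to -0.73). All 4 were called lower in LP4 over UI, with wide intervals, and they make up 4 of the 19 lower calls there.

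Complex V held members that were lower, members that were higher and members near UI. The 6 lower calls in LP1 fell on the epsilon subunit of the central stalk and on 5 small subunits of the membrane part. *Atp5j2*, the f subunit, was at 389, 187 and 197 CPM (-1.05, -1.09 to -1.02, and -0.98, -1.02 to -0.95), *Atp5k*, the e subunit, at 207, 105 and 110 (-0.98, -1.03 to -0.93, and -0.91, -0.96 to -0.87), and *Atp5e*, the epsilon subunit, at 471, 251 and 308 (-0.91, -0.94 to -0.88, and -0.61, -0.64 to -0.58). *Atp5l*, the g subunit, was at 426, 270 and 314 CPM (-0.66 and -0.44), *Atp5mpl*, a small proteolipid, at 176, 110 and 133 (-0.67 and -0.41), and *Atp5md*, also called DAPIT, at 114, 70.4 and 94.4 (-0.70 and -0.28). All 6 were higher in LP4 than in LP1, by 0.07 to 0.42, which is against the sum of the complex in that comparison.

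The alpha, beta and gamma subunits and the stalk subunit d were called in neither comparison with UI. *Atp5a1*, the alpha subunit, was at 392, 346 and 343 CPM (-0.18 and -0.19). *Atp5b*, the catalytic beta subunit, was at 206, 226 and 189 CPM, against the complex in LP1 (0.13, 0.09 to 0.17), and *Atp5c1*, the gamma subunit of the rotor, did the same with 204, 224 and 190 CPM (0.13, 0.09 to 0.17). *Atp5h*, a stalk subunit, was barely against it in LP1 at 259, 267 and 237 CPM (0.04, 0.00 to 0.08). In LP4 these 3 had ratios of -0.13 to -0.11, which turned above 0 with TMM and with median of ratios scaling.

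Other stalk subunits were further below UI in LP4 than in LP1, or moved the other way. *Atp5d*, the delta subunit, was at 278, 249 and 183 CPM (-0.16 and -0.60). *Atp5o*, which joins the stalk to the head, was at 187, 168 and 126 CPM (-0.16 and -0.57). *Atp5j*, coupling factor 6, was at 241, 230 and 208 CPM (-0.07 and -0.22). *Atp5f1*, the b subunit of the stalk, moved against the complex at both times with 170, 221 and 225 CPM (0.38, 0.34 to 0.43, and 0.41, 0.36 to 0.45).

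The genes of the c subunit, which forms the rotor ring, gave the sharpest contrast within complex V. *Atp5g1*, *Atp5g2* and *Atp5g3* encode the same mature protein with different import sequences. *Atp5g1* was at 291 CPM in UI, 262 in LP1 and 191 in LP4 (-0.15, -0.19 to -0.12, and -0.61, -0.65 to -0.57). *Atp5g2* was at 128, 274 and 227 CPM, the highest ratio of complex V in both comparisons with UI (1.10, 1.05 to 1.15, and 0.83, 0.78 to 0.88). *Atp5g3* was at 112, 162 and 184 CPM (0.53, 0.48 to 0.59, and 0.72, 0.67 to 0.78). Their sum therefore went up while the complex went down, from 531 to 698 and 602 CPM, or 0.39 (0.37 to 0.42) in LP1 and 0.18 (0.16 to 0.21) in LP4. *Atp5g1* supplied 54.9% of that sum in UI, 37.5% in LP1 and 31.7% in LP4, and *Atp5g2* went from 24.1% to 39.3% and 37.7%. The coding parts of these genes are alike, so reads could in part be given to the wrong one of them by the counting, and this was not tested.

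**Figure D4:**
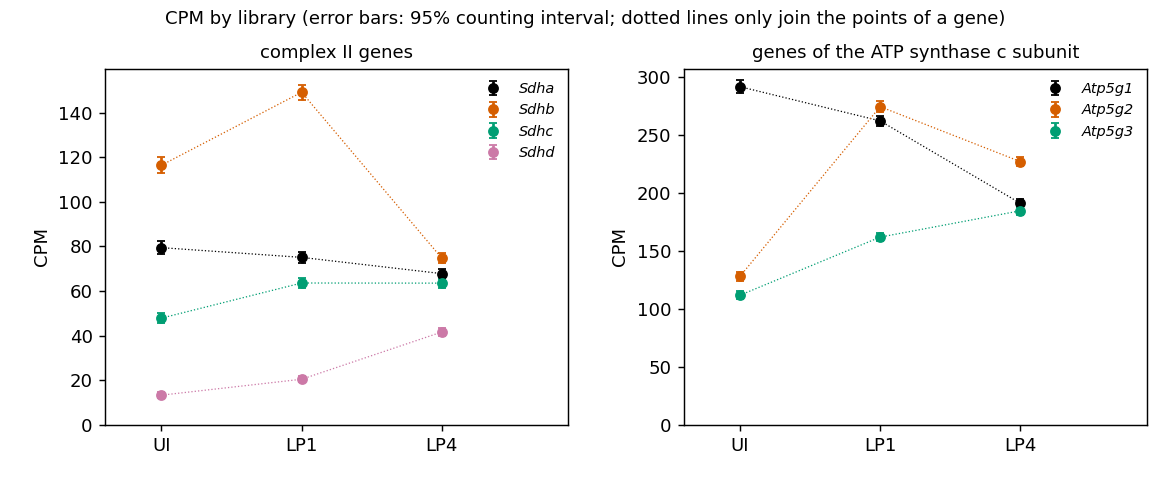
CPM (y axis from 0) of the complex II genes on the left and of the genes of the ATP synthase c subunit on the right in UI, LP1 and LP4; error bars are 95% counting intervals and dotted lines only join the points of a gene. *Sdhb* falls from 149 to 74.7 CPM between LP1 and LP4 while *Sdhd* goes from 20.4 to 41.6, and *Atp5g2* goes from 128 to 274 CPM between UI and LP1 while *Atp5g1* goes from 291 to 262.

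The promoters of the c subunit genes are shown because these genes make 1 protein and moved apart.
Atp5g1, chr11:96075602-96075781, minus strand: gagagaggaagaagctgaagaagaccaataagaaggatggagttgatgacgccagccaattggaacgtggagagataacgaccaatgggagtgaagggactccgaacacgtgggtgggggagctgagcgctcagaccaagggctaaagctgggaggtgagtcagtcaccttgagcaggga
Atp5g2, chr15:102671018-102671197, minus strand: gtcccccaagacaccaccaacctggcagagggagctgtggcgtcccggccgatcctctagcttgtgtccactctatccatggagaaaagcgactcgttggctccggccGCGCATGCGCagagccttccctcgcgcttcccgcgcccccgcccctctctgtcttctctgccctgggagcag
Atp5g3, chr2:73911297-73911476, minus strand: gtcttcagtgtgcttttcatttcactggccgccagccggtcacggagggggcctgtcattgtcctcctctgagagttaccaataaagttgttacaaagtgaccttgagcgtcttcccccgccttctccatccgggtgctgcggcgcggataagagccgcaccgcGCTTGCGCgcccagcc
The windows of *Atp5g2* and *Atp5g3*, which were higher, hold the NRF1 core, in *Atp5g2* as a pair of overlapping matches that start 42 and 40 bases before the start and in *Atp5g3* at base 15 after it. The window of *Atp5g1*, which was called lower in LP4 but not in LP1, holds none of the 3 cores in its full 300 bases. Among members called lower in LP1 that had a window, *Uqcr11*, *Atp5j2*, *Atp5k* and *Atp5l* hold the NRF1 core. The rest of them do not, and are *Uqcr10*, *Cox5b*, *Cox6b1*, *Cox6b2*, *Cox7a1*, *Cox7a2*, *Cox7b*, *Atp5e* and *Atp5md*. Among the other members called higher in LP1 that had a window, *Sdhd* holds the NRF1 core and *Uqcrfs1* does not. The 3 genes of the c subunit are too few to relate letters to direction, and this was not tested over all members with a window.

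Between LP1 and LP4 the sums of complexes III, IV and V differed by 0.08 or less in size, while that of complex II differed by -0.32 (-0.35 to -0.28) and *Cycs* by 0.31 (0.24 to 0.37). Many members of complexes III to V moved against those small sums. They were *Uqcrc1* (-0.24) and *Uqcrq* (-0.08) in complex III, *Cox6a1*, *Cox6b1*, *Cox6c*, *Cox7a2*, *Cox7b*, *Cox7c* and *Cox8a* (0.04 to 0.52) in complex IV, and *Atp5e*, *Atp5g3*, *Atp5j2*, *Atp5k*, *Atp5l*, *Atp5md* and *Atp5mpl* (0.07 to 0.42) in complex V. In complex IV these were the larger group, since 7 of 15 members had intervals above 0 and 5 below it, with a median ratio of 0.04. Its sum went from 3186 to 3024 CPM, a smaller change than that of *Cox4i1* alone, from 1019 to 757. The sums of complexes IV and V, -0.08 and -0.07 in this comparison, turned to 0.02 and 0.03 with TMM and to 0.06 and 0.06 with median of ratios. Under either scaling none of these 14 members of complexes IV and V was against its complex, nor was *Uqcrq* against complex III. In cells of 4000 to 12000 UMIs the sum of complex III was -0.0013, and neither *Uqcrc1* nor *Uqcrq* was against it. In LP1 over UI, by contrast, the 9 members against their complex kept their sign against it under each of the 10 alternatives of cells, scaling and weighting.

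Many lower members had short mRNAs, and other genes with mRNAs under 750 nt were lower more often than longer ones. The annotated mRNA of a member had a median length of 736 nt, against 2992.5 nt over all genes with at least 50 CPM. Of the 6 members of that level under 500 nt, 6 were called lower in LP1 over UI, with a median of -0.95. Of 30 other genes under 500 nt 70.0% were lower, with a median of -0.72. Of 143 other genes of 500 to 750 nt 25.9% were lower, and of 2234 over 2500 nt 2.33%. The 14 members of 500 to 750 nt had a median of -0.14, with 3 lower, where the 143 other genes had a median of -0.27. The class of 750 to 1000 nt did not follow. Its 183 other genes had a median of 0.15, with 6.56% lower and 20.8% higher, while its 5 members had a median of -0.60, with 3 lower. In LP4 over UI, lower calls fell on 4 of 6 members under 500 nt and 56.7% of the 30 other genes. At 500 to 750 nt they fell on 1 of 14 members (median -0.07) and 41.3% of the 143 other genes (median -0.42). At 750 to 1000 nt they fell on 5 of 5 members and 32.8% of the 183 other genes. Over the 41 members the Spearman correlation of length and ratio was 0.54 in LP1 over UI, 0.23 in LP4 over UI and -0.46 in LP4 over LP1, and over 3691 other genes it was -0.08, 0.08 and 0.12. With the median length over every protein coding transcript the members' values were 0.70, 0.39 and -0.44. By that measure the 5 members of the class of 750 to 1000 nt had lengths of 504 to 745 nt, so their class depends on the measure. These are descriptions across genes that share their libraries. *Atp5g2*, with 586 nt, was at 1.10 in LP1 over UI, where the other genes of 500 to 750 nt had a median of -0.27.

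When the median ratio of the other genes of like length was taken off each member, 6 members were lower and 5 higher in LP1 over UI, and 9 lower and 8 higher in LP4 over UI. What remained of the median over the members was -0.05 and -0.06. These values used the length classes above, and the median length over every protein coding transcript was not tried here. The share of all genes called after this step was not counted. *Atp5mpl* and *Atp5md* then came to 0.05 and 0.02 in LP1 over UI. The part of mRNA length in the result was otherwise not tested.

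**Figure D5:**
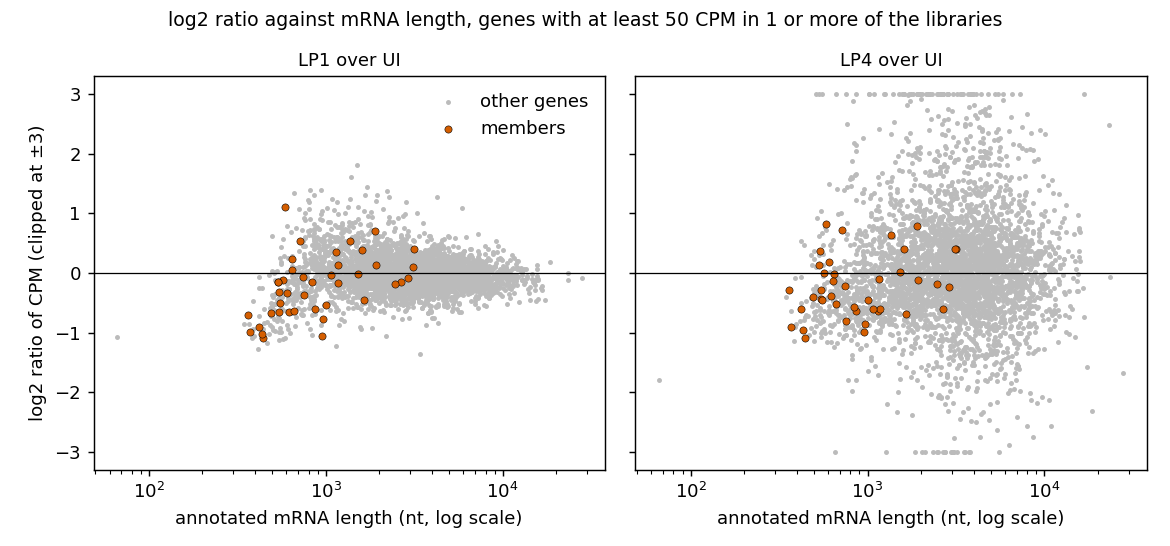
Log2 ratio of CPM (y axis, clipped at 3 in size) against annotated mRNA length in nt (x axis, log scale) for genes with at least 50 CPM in 1 or more of the libraries, LP1 over UI on the left and LP4 over UI on the right; orange points are the 41 members and grey points other genes. In LP1 over UI the points under 500 nt lie mostly below 0, members and other genes alike.

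Depth and the markers of cycling and other cell types differed between the libraries, and the members were counted again with these in view. In cells of 4000 to 12000 UMIs, 17 members were lower in LP1 over UI and 20 in LP4 over UI. Without cells that held 3 or more UMIs of any 1 of the neutrophil, dendritic cell, stromal or cycling marker lists, 17 and 19 were lower, in 4930, 3520 and 2359 cells of UI, LP1 and LP4. The share of all genes called was not counted in these sets of cells, so these counts cannot be set against a background. Cells with 3 or more UMIs of cycling markers differed from cells with none by 0.00, 0.03 and -0.05 in the members' summed CPM in the 3 libraries. Such cells also had more UMIs, with medians of 7216, 11764.5 and 13443 against 4664, 8283 and 10279. They numbered 1107, 1522 and 2234, and neither this split nor the removal of marked cells sets cycling apart from depth. *Cycs* differed more by this split, by 0.40 (0.25 to 0.56) in UI and 0.38 (0.26 to 0.51) in LP1 but 0.05 (-0.06 to 0.16) in LP4.

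The mitochondrially encoded partners of complexes III to V did not follow the nuclear members. Their CPM comes from cells kept under the 5% limit on mitochondrial UMIs, which acts on these same genes. The filters removed 0.849%, 1.05% and 7.32% of barcodes in UI, LP1 and LP4, and these values were not taken again without that limit. *mt-Cytb*, the cytochrome b of complex III, was at 877, 1591 and 1825 CPM (0.86 in LP1 and 1.06 in LP4), *mt-Co2* of complex IV at 2631, 4731 and 5524 (0.85 and 1.07) and *mt-Atp6* of complex V at 2712, 4999 and 5568 (0.88 and 1.04). *mt-Co1* and *mt-Co3* were higher by 0.19 and 0.45 in LP1 and by 0.45 and 0.43 in LP4. *mt-Atp8*, which overlaps *mt-Atp6*, was the exception at 164, 116 and 98.1 CPM (-0.50 and -0.74). How the counting divided reads between these overlapping genes was not tested, so their values may not stand for separate RNAs. In all, 3 of 6 were called higher in both comparisons, and 0 were called lower in LP1 and 1 in LP4. Among all genes, 5.47% were called higher in LP1 and 20.2% in LP4. With the mitochondrial genome and ribosomal protein genes left out of the total, 16 nuclear members were lower in LP1 and 19 in LP4. The share of all genes called with that total was not counted.

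Subunits and regulators under other symbols included 1 gene that was nearly absent in UI. *AA467197*, a paralog of the complex IV subunit *Ndufa4*, was at 0.588 CPM in UI, 1.28 in LP1 and 26.4 in LP4, or 5.49 (4.87 to 6.18) on the log2 scale in LP4, from 21 and 1621 UMIs. *Ndufa4* itself was at 197, 202 and 244 CPM (0.03 and 0.31). *Atpif1*, the inhibitor of ATP synthase, was lower at 507, 323 and 336 CPM (-0.65 and -0.59). This list of 8 symbols had 5 in the files, of which *Atp5md* and *Atp5mpl* are members too.

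Assembly factors were counted for each complex, with no test between the lists. Beside them, 8.16% of all genes were lower and 5.47% higher in LP1, and 30.2% and 20.2% in LP4. For complex II, 2 of 4 were higher in both LP1 and LP4, *Sdhaf4* (13.2, 24.6 and 19.9 CPM) and *Sdhaf3*, and *Sdhaf1* was lower in LP4 (20.2, 23.3 and 12.1 CPM, -0.74). For complex III, 1 of 6 was lower in LP1 and 3 in LP4, among them *Uqcc3* (64.2, 52.3 and 24.8 CPM, -1.38 in LP4) and *Uqcc2* (88.3, 54.3 and 44.4 CPM, -0.99). For complex IV, 3 of 22 were lower and 1 higher in LP1, and 7 lower (31.8%) and 5 higher (22.7%) in LP4, near the 30.2% and 20.2% of all genes. The copper chaperone *Cox17*, at 29.3, 35.1 and 80.3 CPM (1.45 in LP4), and *Cmc2*, at 37.2, 28.0 and 14.2 CPM (-1.39 in LP4), had the highest and the lowest ratio of that list in LP4 over UI. For complex V, *Atpaf2* and *Tmem70* were higher in both comparisons and *Atpaf1* in neither.

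The TCA cycle list was nearly level at 1 hour, with 1 of 12 genes higher, *Fh1* (8.71, 15.8 and 18.1 CPM, 0.86), and 0 lower, and had 3 lower and 3 higher in LP4. *Acod1*, the enzyme that makes itaconate, an inhibitor of succinate dehydrogenase, was at 387, 344 and 2182 CPM (2.49 in LP4). Of carriers and regulators, 1 of 11 was lower and 1 higher in LP1, and 2 were lower and 4 higher in LP4. For both lists, the shares of all genes were 8.16% lower and 5.47% higher in LP1, and 30.2% and 20.2% in LP4. *Slc25a5*, an ADP/ATP carrier, was at 116, 203 and 196 CPM (0.81 and 0.76), *Ucp2*, of the uncoupling protein family, at 762, 595 and 442 CPM (-0.36 and -0.79), and *Hif1a*, a regulator of glycolytic genes, at 131, 123 and 534 CPM (2.02 in LP4). *Nrf1* and *Gabpa* were at 40.9, 37.8 and 58.9 CPM (0.53 in LP4) and at 14.4, 14.5 and 22.9 CPM (0.67).

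Like families are set beside the members with no test of the difference. Of all genes with at least 20 UMIs, 8.16% were lower and 5.47% higher in LP1 over UI, and 30.2% and 20.2% in LP4 over UI. Of 37 complex I genes, 11 (29.7%) were lower and 3 higher in LP1, and 16 (43.2%) lower and 5 higher in LP4, with medians of -0.19 and -0.43. Of 85 cytosolic ribosomal protein genes, 21 (24.7%) and 32 (37.6%) were lower, with medians of -0.18 and -0.42. Of 78 mitochondrial ribosomal protein genes, 4 (5.13%) were lower in LP1 and 27 (34.6%) in LP4, with medians of 0.04 and -0.30. Their share of lower genes was below that of all genes in LP1 and slightly above it in LP4.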

How the data were processed

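RNA of single BMDMs was measured in 1 library each of UI, LP1 and LP4. The authors aligned the reads with Cell Ranger to mouse mm10 and deposited raw UMI counts of each gene in each barcode. The file headers and labels give version 7.1.0, and the study's methods name a different version. Whether reads in introns were counted is not given in the sources used here, and counts of genes with near-identical copies are uncertain. A barcode was kept if both its UMIs and its detected genes exceeded 500 and mitochondrial UMIs made up less than 5%. These are the limits the study states, but it reports fewer cells after quality control than were kept here. The reason for that difference is not known, and no doublet caller was run.

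Each gene's UMIs in the kept cells of a library were added up and expressed as CPM. Intervals of CPM are exact Poisson ones and those of log2 ratios exact conditional binomial (Clopper-Pearson) ones, at 95%. They cover counting error only, and not variation from capture, library preparation or culture. Genes without UMIs in a library were set to a floor of 3 counts for ratios. The study's tests over cells were not repeated, because cells are not replicates of a condition. Named members are, for each complex, the lowest and highest ratio among those with at least 50 CPM, every member against the sign of its complex with an interval that leaves out 0, and 6 of those the study names (*Atp5e*, *Atp5k*, *Atp5j2*, *Uqcrq*, *Uqcr10*, *Uqcr11*); the values of the rest were added after they were seen. The members and lists were chosen with earlier results of these data known. Lengths and positions are from GENCODE vM21 on GRCm38 (mm10), with a length being the median over complete principal transcripts; this replaced the planned median over every protein coding transcript after the data were seen, because that one took in partial transcripts (Spearman 0.70 in place of 0.54 in LP1 over UI). The steps were tested on simulated data built from these libraries. Figures were drawn with matplotlib 3.10.9, and pandas 2.3.3, scipy 1.17.1 and numpy 2.4.6 ran under Python 3.11.15, with R 4.3.3 and edgeR 4.0.16 for TMM factors alone. Other cell filters, scalings, weights, minimums, call limits and an adjustment for mRNA length were tried.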

Additional observations from a re-analysis of the deposited data

Results flagged for a closer look

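*Sdhb* lay above UI in LP1 (log2 ratio 0.36) and below it in LP4 (-0.64), with both counting intervals leaving out 0. It was the only member of at least 50 CPM in a library with a ratio of 0.25 or more in size in opposite directions at 1 and 4 hours. With 1 library for each condition, and with UI shared by both ratios, the difference was not tested.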

How the results depend on the processing

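No paired analysis was possible because each condition has 1 library. The counts of members called stayed within 1.5 times of those reported for other mitochondrial limits, all barcodes, no minimum on counts, no deepest 5% of cells, no cells with markers of other types or of cycling, and CPM without mitochondrial and ribosomal genes. With TMM and median of ratios scaling, LP4 over UI had 10 and 8 members lower and 9 and 9 higher, against 19 and 5; these scalings moved the median of genes with at least 50 CPM to 0.15 and 0.19. In LP4 over LP1, 1 member was higher with cells of 4000 to 12000 UMIs, with means of cell shares and with a 1.5-fold call, against 3. With members of at least 50 CPM in 1 of the 2 libraries compared, 3 were higher in LP1 over UI and 2 lower in LP4 over LP1. A 1.5-fold call gave 3 higher in LP1 over UI. A call at 0.25 gave 8 higher in LP1 over UI, 9 higher in LP4 over UI, and 11 lower and 9 higher in LP4 over LP1. Less the median of other genes of like mRNA length, an alternative chosen after seeing the data, 6 were lower in LP1 over UI, and 9 lower and 8 higher in LP4 over UI; *Atp5mpl* and *Atp5md* turned to 0.0465 and 0.0201 in LP1 over UI. The causes were not tested. The share of all genes called was counted only with the processing reported, and not under these alternatives. The summed ratio of complex III to UI stayed between -0.61 and -0.51 in LP1 and between -0.61 and -0.34 in LP4; in LP4 complex II ran from -0.15 to 0.15, complex IV from -0.48 to -0.21 and complex V from -0.41 to -0.09. Without replicates the spread between cultures is unknown, and depth bears on small ratios: in cells of 4000 to 12000 UMIs *Cycs* in LP1 over UI and the sum of complex III in LP4 over LP1 turned to -0.091 and -0.0013.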
